A study of Mus musculus with 9 samples.

Results

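Cochlear ducts from 9 E14.5 mouse embryos were set in order by the number of intact Prdm16 alleles they carried, and RNA was followed gene by gene along that order. All 9 of the 9 libraries of the series entered the ordering, 3 from WT (Prdm16 +/+, no allele lost), 3 from Prdm16 cGT heterozygote (Prdm16 cGT/+, 1 allele lost) and 3 from Prdm16 cGT null embryos (Prdm16 cGT/cGT, 2 alleles lost). Each library came from the microdissected ducts of both inner ears of a single embryo, and the embryos came from matings between heterozygotes on an FVB/NJ background. The cGT allele is a germline gene trap, so every cell of a heterozygote or null embryo carries it, and no driver or Cre limits it to the cochlea. Littermates were used, but the labels do not say which embryos shared a litter, so p-values measure the spread between these embryos. Bulk RNA cannot tell fewer cells of a type from less RNA per cell.

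PRDM16 is a zinc finger protein with a PR domain that acts in the nucleus on chromatin and transcription, and it is known from brown fat, stem cells and craniofacial development. In the E14.5 duct it marks Kölliker's organ (KO), the transient epithelium on the medial side of the floor, which makes much of the tectorial membrane and later gives rise to the inner sulcus and spiral limbus. Lateral to KO lies the prosensory domain, the source of hair cells and supporting cells. A heterozygote shows how each gene responds when a single allele is lost. It may lie between WT and null (a linear course), beside WT (a recessive-like course) or beside null (a dose-sensitive course).

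Total counts ran from 24095322 to 30819118 per library, and a count of 3, taken as the floor, was worth 0.0973 to 0.125 CPM (the unit of normalised read count used here, scaled to library size with TMM). Epithelial markers of the duct were high in all 9 libraries, with the summed level of the 20 KO genes between 4232 and 7242 CPM. Mesenchyme RNA was uneven. The summed level of the 20 mesenchyme genes was 895, 1467 and 210 CPM in WT 1, 2 and 3, 132, 196 and 156 CPM in heterozygotes 1, 2 and 3, and 141, 96.1 and 1871 CPM in null 1, 2 and 3. WT 1, WT 2 and null 3 therefore stood apart, and the first principal component (32.8% of the variance) separated the same 3 libraries from the other 6. Null 3 also held the most cartilage RNA, with a summed level of 8761 CPM for 8 cartilage genes against 4979 to 6040 CPM in the other 8 libraries. Its Acan count, the core protein of cartilage matrix, was 11975 against 30 to 195 elsewhere. Counts on each course and in most gene lists are given with and without WT 1, WT 2 and null 3. Fits without them keep WT 3 as the only WT library, so a call lost there cannot be told from the loss of replicates. Their p-values rest on that embryo for WT.

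Prdm16 RNA itself (ENSMUSG00000039410, chr4:154316125-154636873 of mm10, minus strand) measured 225, 197 and 184 CPM in WT, 151, 123 and 141 CPM in heterozygotes, and 23.7, 19.1 and 27.4 CPM in null embryos. The 3 genotypes did not overlap, and every library lay on the side its label gives. Heterozygotes held 68.5% and null embryos 11.6% of the WT mean, and the counts do not separate reads of the intact transcript from those of the trapped one. RNA fell by 1.53 on the log2 scale for each allele lost (SE 0.224, edgeR adjusted p = 0.00440). The heterozygote mean of 138 ± 14.5 CPM (SD, n = 3) was above the 113 CPM midway between WT and null. On the log2 scale the heterozygote exceeded the midpoint by 1.01 (SE 0.108, edgeR adjusted p = 0.0228), and that call was lost in 6 of the 9 fits that left out an embryo, with adjusted p up to 0.311. An equal fall in CPM for each allele would also lie above the log2 midpoint, so part of this excess comes from the scale.

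Across the transcriptome, 17797 genes passed the filter on low counts and were tested for a slope on the number of alleles lost. A gene was called at an edgeR adjusted p under 0.05 with a fitted change over both alleles above 0.5 on the log2 scale. By this rule 254 genes (1.43% of those tested) rose and 168 (0.944%) fell as alleles were lost, 2.37% in all, and 530 (2.98%) passed on the adjusted p alone. In 190 of the 422 called genes (45.0%) every heterozygote library lay between every WT and every null library, an order found in 292 (1.64%) of all genes tested, 160 of them rising (0.899%) and 132 falling (0.742%). Single embryos moved the counts. Without null 3 there were 319 higher and 519 lower genes, without null 1 there were 146 and 92, without WT 1 there were 164 and 98, and without WT 2 there were 163 and 117. The fit without WT 1, WT 2 and null 3 keeps WT 3 as the only WT library, so its counts are not given here. With a mesenchyme covariate and all 9 libraries, 415 rose and 235 fell.

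The steepest rises were taken among called genes with a mean of at least 1 CPM and no overlap of WT and null libraries. Fndc7 (ENSMUSG00000045326, chr3:108853678-108890008), which encodes a fibronectin type III domain protein, measured 0.741, 0.431 and 0.407 CPM in WT, 2.33, 1.62 and 1.65 CPM in heterozygotes and 29.1, 23.5 and 24.4 CPM in null embryos. Each step was clear of the one before, and the slope was 2.93 per allele on the log2 scale (SE 0.202, edgeR adjusted p = 1.14e-04). The heterozygote rise was small in CPM and sizeable on the log2 scale, where the heterozygote stood 1.82 above WT. Corin, a membrane protease that processes natriuretic peptide precursors, measured 0.408, 0.196 and 0.475 CPM in WT, 1.25, 1.08 and 0.987 CPM in heterozygotes and 7.47, 7.59 and 7.92 CPM in null embryos (slope 2.25, SE 0.163, edgeR adjusted p = 1.22e-04). Fgf14, an intracellular FGF homologous factor that acts on sodium channels, measured 0.630, 0.275 and 0.339 CPM in WT, 1.81, 0.865 and 1.02 CPM in heterozygotes and 4.75, 4.68 and 4.86 CPM in null embryos (slope 1.77, SE 0.171, edgeR adjusted p = 5.05e-04). These 3 genes kept the order of the alleles in all 9 libraries. Corin and Fgf14 share 147 and 220 exon bases with genes on the other strand.

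The other 3 of the 6 steepest rises showed no step in the heterozygote. Rbpjl, a relative of the Notch effector Rbpj, measured 0.815, 0.863 and 0.814 CPM in WT, 1.12, 0.721 and 1.02 CPM in heterozygotes and 6.11, 7.91 and 8.84 CPM in null embryos (slope 1.65, SE 0.238, edgeR adjusted p = 0.00412). Matn4, a matrix protein of the matrilin family, measured 15.2, 26.2 and 9.16 CPM in WT, 16.6, 14.2 and 9.29 CPM in heterozygotes and 70.6, 78.2 and 294 CPM in null embryos (slope 1.59, SE 0.370, edgeR adjusted p = 0.0444). Its call was lost in 6 of 9 fits that left out an embryo, and its highest library was null 3, the library richest in mesenchyme RNA. Without null 3 its slope was 1.03 (edgeR adjusted p = 0.0427), and without WT 1, WT 2 and null 3 it was 1.70 (adjusted p = 0.00938). Slpi, a secreted protease inhibitor, had a slope of 1.65 (SE 0.309, edgeR adjusted p = 0.0153), with 0.259 to 0.667 CPM in WT, 0.397 to 0.843 CPM in heterozygotes and 1.90 to 7.96 CPM in null embryos, and was not called without WT 1 (adjusted p = 0.0645) or without WT 1, WT 2 and null 3 (adjusted p = 0.0640). Rbpjl, Matn4 and Slpi lie side by side on chromosome 2, and exons of Rbpjl and Matn4 share 149 bases on opposite strands, so a count made without strand would mix their reads.

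The steepest falls ended near the floor. Tmprss4, a transmembrane serine protease gene, had 105, 69 and 79 counts in WT, 9, 12 and 19 in heterozygotes and 2, 3 and 1 in null embryos. The heterozygotes held 16.1% of the WT level, clear of both other genotypes, and null libraries were at or under the floor of 3 counts, so no null fold is given and the fitted slope depends on the prior count (edgeR adjusted p = 1.14e-04). Mx1, an interferon-induced GTPase, had 104, 66 and 64 counts in WT, 30, 25 and 15 in heterozygotes and 3, 2 and 1 in null embryos (edgeR adjusted p = 0.00112), again in the order of the alleles. Tmprss4 shares 412 exon bases with a gene on the other strand.

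Calb1, the calcium buffer calbindin, measured 24.2, 13.4 and 12.1 CPM in WT, 11.1, 5.34 and 9.66 CPM in heterozygotes and 0.867, 0.743 and 0.629 CPM in null embryos (slope -2.10, SE 0.333, edgeR adjusted p = 0.00666). Upp1, uridine phosphorylase, measured 25.6, 21.2 and 15.4 CPM in WT, 15.2, 7.39 and 11.6 CPM in heterozygotes and 1.03, 1.16 and 1.59 CPM in null embryos (slope -1.93, SE 0.289, edgeR adjusted p = 0.00498). Both genes kept the order, with heterozygote means at 52.6% and 54.9% of WT. Without WT 1, WT 2 and null 3 neither was called (edgeR adjusted p = 0.0600 for Calb1 and 0.0582 for Upp1). Msc, a basic helix-loop-helix repressor, went from 9.66 ± 2.49 CPM in WT through 3.66 ± 0.606 to 0.484 ± 0.606 CPM in null embryos (SD, n = 3), with an edgeR adjusted p of 0.0115 for the slope. It shares 539 exon bases with a gene on the other strand. Nr2e1, an orphan nuclear receptor of neural progenitors, measured 19.0, 11.4 and 9.06 CPM in WT, 11.5, 1.95 and 4.57 CPM in heterozygotes and 0.0413, 0.420 and 0.335 CPM in null embryos (edgeR adjusted p = 0.0226 for the slope). Null counts were 6, 1 and 28 for Msc and 1, 13 and 8 for Nr2e1, each with a library under the floor of 3, so their fitted slopes depend on the prior count and are not given. Heterozygote 1 reached into the WT range of Nr2e1, and its call was lost without WT 1, null 1 or null 2, with adjusted p of 0.0637 to 0.0888, and without WT 1, WT 2 and null 3 (adjusted p = 0.170).

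Genes that fell into the order of the alleles in all 9 libraries with the smallest trend p included moderate changes at high level. Pla2r1, a receptor of secreted phospholipase A2, measured 58.8, 54.9 and 45.9 CPM in WT, 31.7, 31.3 and 32.4 CPM in heterozygotes and 13.3, 10.4 and 12.1 CPM in null embryos. Its heterozygotes lay within 1.04 CPM of one another, far from both other genotypes (slope -1.07, SE 0.0858, edgeR adjusted p = 1.95e-04). Frzb, a secreted Wnt antagonist, measured 43.4, 42.0 and 47.8 CPM in WT, 34.4, 29.9 and 33.5 CPM in heterozygotes and 21.7, 20.9 and 20.9 CPM in null embryos (slope -0.53, SE 0.0446, edgeR adjusted p = 2.41e-04). Stmn2, a microtubule regulator of neurons, measured 8.19, 9.14 and 8.45 CPM in WT, 3.09, 3.21 and 3.33 CPM in heterozygotes and 0.661, 1.26 and 1.38 CPM in null embryos (slope -1.47, SE 0.117, edgeR adjusted p = 1.95e-04). Pla2r1 shares 299 exon bases with a gene on the other strand. In all 3 genes the heterozygote libraries lay between the other genotypes, although the contrast of heterozygotes with WT alone did not pass (edgeR adjusted p = 0.196, 0.352 and 0.196 for Pla2r1, Frzb and Stmn2).

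Rising genes showed the same stepwise order. Shisa2, which holds back the maturation of FGF and Wnt receptors, measured 121, 123 and 125 CPM in WT, 151, 180 and 167 CPM in heterozygotes and 221, 212 and 234 CPM in null embryos. Its 3 genotypes were well apart at a change of less than 2-fold (slope 0.43, SE 0.0349, edgeR adjusted p = 2.08e-04). Ddc, the decarboxylase that makes dopamine and serotonin, measured 13.4, 14.2 and 13.6 CPM in WT, 20.2, 24.3 and 24.1 CPM in heterozygotes and 37.8, 41.4 and 31.7 CPM in null embryos (slope 0.71, SE 0.0568, edgeR adjusted p = 1.95e-04). Alpk2, an alpha kinase gene, rose from 3.58 ± 0.304 CPM in WT through 7.04 ± 1.27 to 19.2 ± 1.12 CPM in null embryos (SD, n = 3), although 1444 of its exon bases lie opposite other genes. These slopes were called in every fit that left out an embryo and in every other alternative tried.

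**Figure D1:**
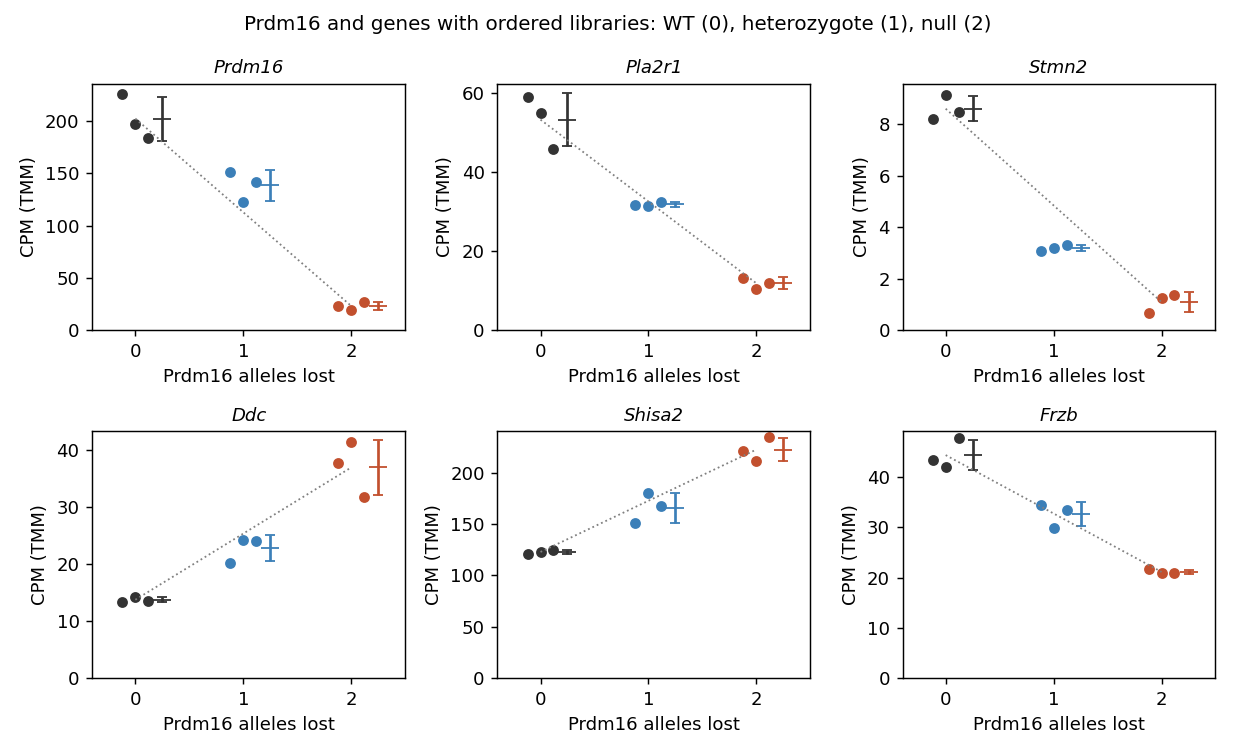
Normalised read count (CPM, y axis, linear from 0) against the number of Prdm16 alleles lost (x axis) for Prdm16, Pla2r1, Stmn2, Ddc, Shisa2 and Frzb. Each dot is an embryo (black WT, blue heterozygote, red null), the bar beside it the mean ± SD of 3 embryos, and the dotted line joins the WT and null means. The 3 genotypes do not overlap in any panel. Heterozygotes of Prdm16 lie above the line, those of Stmn2 below it, and those of the other 4 genes near it.

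To place each gene on a course, the heterozygote mean was given a position between WT (0) and null (1) on the log2 scale. Genes qualified if the 3 genotypes differed in an edgeR F test (adjusted p under 0.05, 412 genes, 2.31% of those tested) and null differed from WT by over 0.5 on the log2 scale. This left 355 genes with a course (1.99% of genes tested), 202 higher and 153 lower in null embryos, and 317 of them were also called in the trend (75.1% of the trend-called genes). A position under 0.25 was named recessive-like, 0.25 to 0.75 intermediate and over 0.75 dose-sensitive. By these boundaries 149 genes were recessive-like, 197 intermediate and 9 dose-sensitive. The counts were 303, 342 and 59 with DESeq2 and 354, 322 and 117 in edgeR without the filter on low counts. The boundaries are not natural gaps, since Tirap and Myo5b stood just under 0.25 (0.249 and 0.248) and Smpx and Gm30191 just over it (both 0.251).

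The heterozygote was more often nearer to WT. The median position was 0.299 (quartiles 0.153 and 0.444), with 296 genes under the midpoint and 59 above it. The 95% interval of a position lay wholly under 0.5 in 142 genes, wholly above it in 5, and held 0.5 in 207. Heterozygote libraries overlapped WT but not null libraries in 158 of the 355 genes and null but not WT libraries in 28. Median positions were 0.284, 0.338 and 0.285 in heterozygotes 1, 2 and 3. Genes with a null change over 2 on the log2 scale had a median position of 0.237 (68 genes), against 0.325 for changes of 1 to 2 (115 genes) and 0.305 for changes of 0.5 to 1 (172 genes). With positions taken in CPM the largest changes had the highest median, at 0.340, against 0.308 and 0.292. These are counts and medians over genes of the same 9 libraries and carry no test.

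The scale on which a midpoint is taken mattered for single genes and for medians of groups of genes. In CPM the medians were 0.241 for rising and 0.383 for falling genes, against 0.328 and 0.247 on the log2 scale, and the median over all 355 was 0.304. On both scales 119 genes were recessive-like, 156 intermediate and 8 dose-sensitive. Gene by gene, a departure from the log2 midpoint passed an edgeR adjusted p under 0.05 in 2 genes (0.0112% of those tested), Prdm16 and Snap91. At an unadjusted p under 0.05 there were 1236 such genes (6.94%), and DESeq2 called 45. For most genes the course is therefore a description of 3 embryos a genotype.

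**Figure D2:**
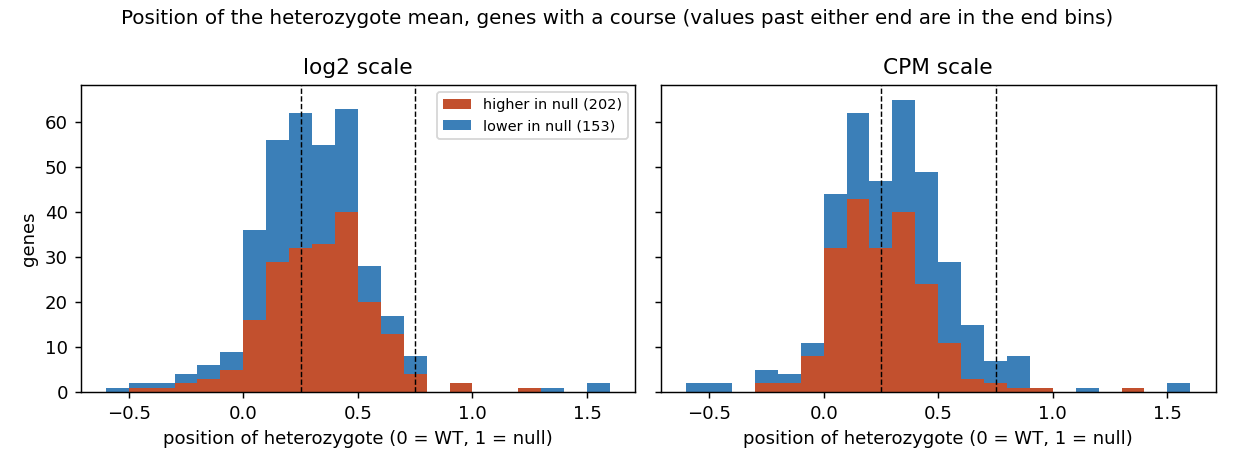
Number of genes (y axis) by the position of the heterozygote between WT (0) and null (1), on the log2 scale (left) and the CPM scale (right), for the 355 genes with a course. Red bars are the 202 genes higher in null embryos, blue bars stacked on them the 153 lower ones, and dashed lines mark 0.25 and 0.75. The medians are 0.299 and 0.304, and falling genes lie further right on the CPM scale than on the log2 scale.

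**Figure D3:**
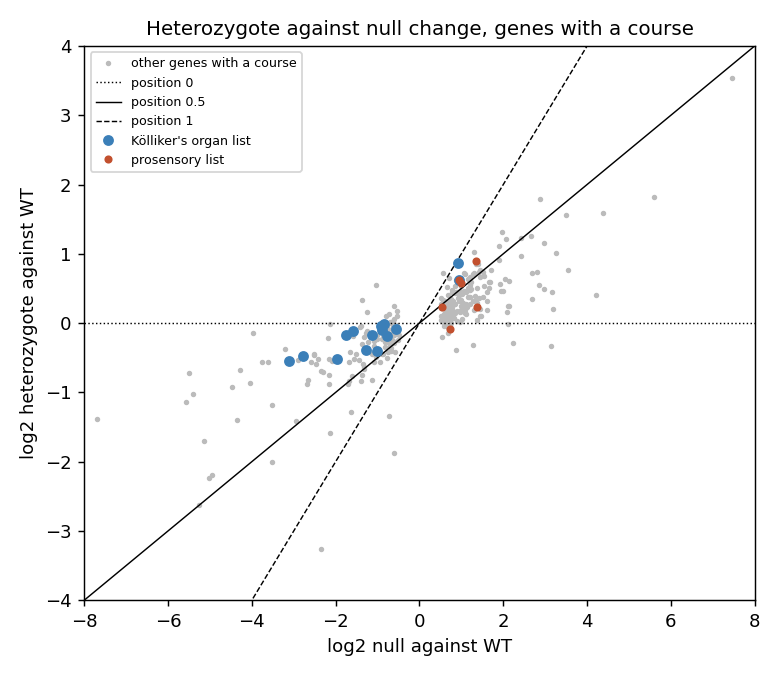
Log2 change of heterozygotes against WT (y axis) and of null embryos against WT (x axis) for the 355 genes with a course, 1 dot a gene. Lines mark positions 0 (dotted), 0.5 (solid) and 1 (dashed). Both changes share the WT libraries. KO genes (blue) that fell lie mostly between the dotted and solid lines, and Nrxn3 is the blue dot near the dashed line.

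Fits with a single coded regressor gave the same contrast between courses. Setting null embryos against WT and heterozygotes together, the recessive-like coding, called 390 genes (2.19% of those tested), of which 264 were also called in the linear trend. Setting WT against heterozygotes and null embryos together, the dose-sensitive coding, called only Nrxn3 (0.00562% of those tested, with 1565 genes, 8.79%, at an unadjusted p under 0.05). DESeq2 called 652 and 137 genes under these codings, and edgeR without null 3 called 423 and 104. Comparing heterozygotes with WT alone in the same 9-library fit, edgeR called 0 genes, with 1130 (6.35%) at an unadjusted p under 0.05. The same fit called 595 genes (3.34%) between null and WT and 204 (1.15%) between null and heterozygotes.

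Prdm16 passed the departure test but was recessive-like only on the log2 scale. Its position in CPM was 0.357, and its heterozygotes overlapped neither other genotype. Snap91 was the other recessive-like gene whose departure passed. This clathrin assembly protein gene (ENSMUSG00000033419, chr9:86765923-86880654, minus strand) is a KO gene and measured 54.7, 51.2 and 49.3 CPM in WT, 48.3, 43.9 and 50.9 CPM in heterozygotes and 18.0, 17.1 and 16.2 CPM in null embryos. Heterozygotes overlapped WT and stood far above every null library. Its position was 0.0739 (95% interval -0.0462 to 0.182), and the heterozygote exceeded the midpoint by 0.68 on the log2 scale (SE 0.0720, edgeR adjusted p = 0.0228). Its slope was -0.79 (SE 0.140, edgeR adjusted p = 0.0119) and was lost in 2 of 9 fits that left out an embryo. Without WT 1, WT 2 and null 3 the slope of Snap91 had an adjusted p of 0.0544 and its departure 0.0866, and the slope of Anks1b, described next, had 0.0647. The departure stayed called in 3 of 9 fits that left out an embryo (adjusted p up to 0.311).

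The other recessive-like genes with the smallest departure p did not pass after adjustment. Anks1b, a scaffold protein of synapses, measured 2.26, 2.24 and 2.31 CPM in WT, 1.77, 2.34 and 1.46 CPM in heterozygotes and 10.4, 9.75 and 12.03 CPM in null embryos (position -0.128, edgeR adjusted p of the departure 0.0701). Serpinb5, the serpin maspin, measured 16.7, 15.2 and 9.70 CPM in WT, 12.4, 9.84 and 15.4 CPM in heterozygotes and 0.330, 1.39 and 0.838 CPM in null embryos (position 0.0363, departure adjusted p = 0.177). Heterozygotes overlapped WT in both genes, and the slope of Serpinb5 did not pass (edgeR adjusted p = 0.0744). Chrdl1, a secreted BMP antagonist, measured 18.8, 16.4 and 17.3 CPM in WT, 22.4, 22.9 and 27.1 CPM in heterozygotes and 67.9, 67.8 and 74.6 CPM in null embryos (position 0.232, 95% interval 0.130 to 0.328). Its heterozygotes were all above WT, by far less than the null embryos. The secreted peptide gene 1500015O10Rik measured 133, 128 and 116 CPM in WT, 117, 70.4 and 83.1 CPM in heterozygotes and 19.5, 16.4 and 19.0 CPM in null embryos (position 0.171).

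Nrxn3, which encodes a presynaptic adhesion protein, had the smallest p under the dose-sensitive coding (ENSMUSG00000066392, chr12:88722876-90334935). It measured 22.2, 20.1 and 23.1 CPM in WT, 39.5, 38.5 and 40.7 CPM in heterozygotes and 46.7, 37.6 and 40.4 CPM in null embryos. Heterozygotes lay in the null range and clear of WT, although their own contrast with WT had an edgeR adjusted p of 0.0797. Its position was 0.925 (95% interval 0.718 to 1.18), and WT stood 0.90 on the log2 scale below the rest (edgeR adjusted p = 0.0114). That call was lost without WT 2, WT 3 or heterozygote 3 (adjusted p = 0.136, 0.0805 and 0.0565) and without WT 1, WT 2 and null 3 together (0.306). Its slope (0.46, SE 0.0882, edgeR adjusted p = 0.0167) was lost in 4 of 9 fits that left out an embryo, without WT 1, WT 2, WT 3 or null 1, and without WT 1, WT 2 and null 3 together (adjusted p = 0.190 for Nrxn3). The departure from linear itself had an adjusted p of 0.470, and 439 exon bases lie opposite another gene.

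The other 8 dose-sensitive genes did not pass under the dose-sensitive coding. Msx1, a homeobox repressor that responds to BMP, measured 12.8, 14.1 and 15.03 CPM in WT, 20.6, 26.6 and 21.7 CPM in heterozygotes and 18.6, 23.1 and 20.1 CPM in null embryos (position 1.28, 95% interval 0.810 to 2.31). Prdm1, a PRDM family repressor, measured 12.9, 8.24 and 8.62 CPM in WT, 21.4, 20.3 and 19.0 CPM in heterozygotes and 30.9, 23.5 and 19.1 CPM in null embryos (position 0.788). Kcnj16, an inward rectifier potassium channel, went from 23.1 ± 1.94 CPM in WT to 36.4 ± 2.86 in heterozygotes and 37.5 ± 6.83 CPM in null embryos (SD, n = 3). In these 3 genes heterozygote and null libraries overlapped and lay above all WT libraries. Gli1, a target and effector of hedgehog signalling, averaged 89.1, 128 and 140.3 CPM in WT, heterozygotes and null embryos (position 0.794), and Vstm2a, which fell, averaged 6.62, 2.71 and 2.11 CPM (position 0.784). WT 1, 2 and 3 held 7.41, 8.12 and 4.34 CPM of Vstm2a, so WT 3 stood nearer the heterozygotes.

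Hba-a1 was counted as dose-sensitive by its position of 3.10, past null, since heterozygotes averaged below both other genotypes. Tspan10 was counted there too. Hba-a1, an alpha globin gene, measured 37.1, 53.9 and 19.7 CPM in WT, 9.08, 7.90 and 13.2 CPM in heterozygotes and 29.2, 16.6 and 27.0 CPM in null embryos. Its heterozygotes overlapped neither genotype, and null against WT did not pass (edgeR adjusted p = 0.427), so these values do not place the heterozygote beside null. Tspan10, known from pigment cells, had 26, 32 and 12 counts in WT, 1, 4 and 2 in heterozygotes and 2, 4 and 7 in null embryos. Its heterozygote and null libraries overlapped near the floor of 3 counts, so which of them lay lower was not detectable at this depth. Summed red blood cell genes (6 tested) ran from 88.5 to 245 CPM in WT, 37.6 to 58.8 CPM in heterozygotes and 59.3 to 125 CPM in null embryos, and summed melanocyte genes (6 tested) from 56.5 to 136, 20.8 to 41.6 and 12.4 to 44.0 CPM. The part of these cells in both genes was not tested.

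Counts of the courses depended on single embryos. Leaving out each embryo in turn gave 94 to 195 recessive-like, 95 to 377 intermediate and 1 to 102 dose-sensitive genes. The dose-sensitive count was 102 without null 3, 38 without WT 3, 14 without WT 1, 1 without WT 2, 4 without heterozygote 2, and 5 without heterozygote 3 or null 2. Recessive-like and intermediate genes numbered 195 and 377 without null 3, 94 and 95 without WT 2, 100 and 115 without WT 1, and 97 and 130 without heterozygote 3. The median position stayed between 0.230 (without null 1) and 0.396 (without null 3). Without WT 1, WT 2 and null 3 it was 0.259, with 106 recessive-like, 92 intermediate and 25 dose-sensitive genes.

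**Figure D4:**
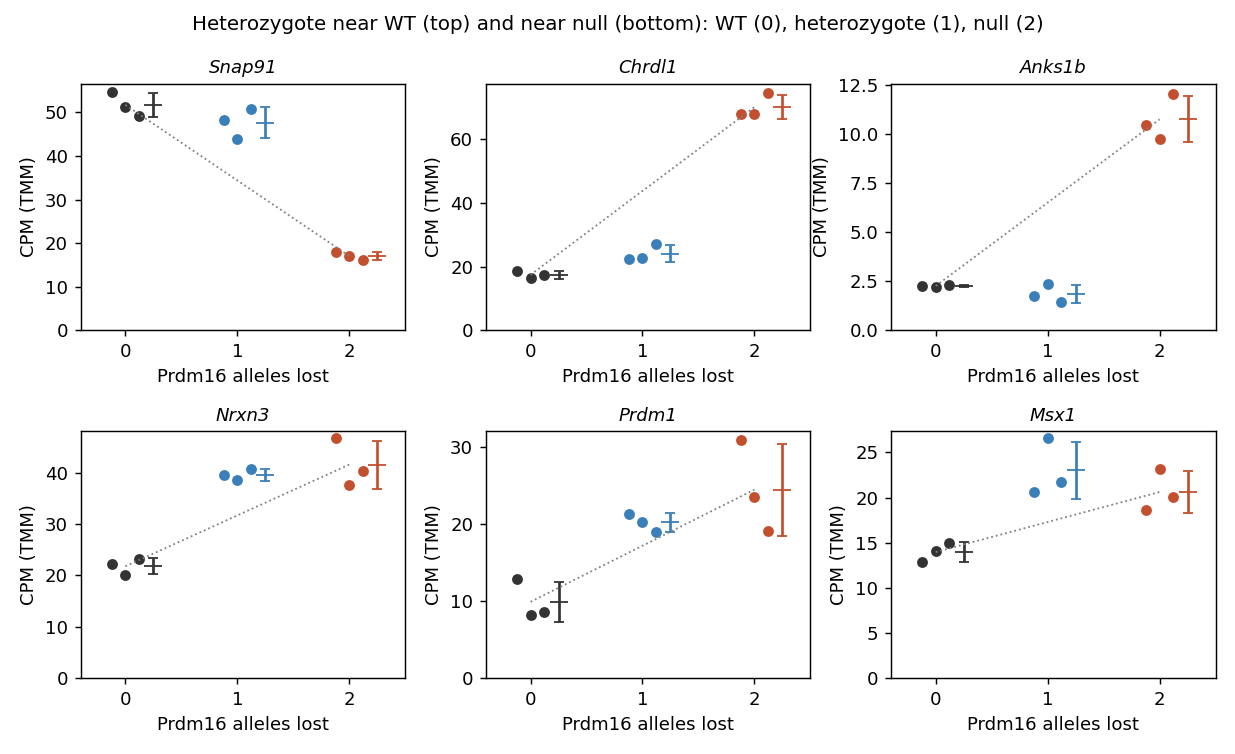
Normalised read count (CPM, y axis, linear from 0) against the number of Prdm16 alleles lost (x axis) for Snap91, Chrdl1 and Anks1b (top, recessive-like) and Nrxn3, Prdm1 and Msx1 (bottom, dose-sensitive). Dots are embryos, bars the mean ± SD of 3, and the dotted line joins the WT and null means. Heterozygotes lie close to WT in the top row, and overlap the null embryos above the line in the bottom row.

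Promoters of a recessive-like, an intermediate and a dose-sensitive gene are shown, as the 250 bases before the RefSeq start (GRCm38.p6, the same assembly as mm10), read along the strand of the gene. They are Snap91 (chr9:86880709-86880958, minus strand), Shisa2 (chr14:59625031-59625280, plus strand) and Msx1 (chr5:37824586-37824835, minus strand).
Snap91: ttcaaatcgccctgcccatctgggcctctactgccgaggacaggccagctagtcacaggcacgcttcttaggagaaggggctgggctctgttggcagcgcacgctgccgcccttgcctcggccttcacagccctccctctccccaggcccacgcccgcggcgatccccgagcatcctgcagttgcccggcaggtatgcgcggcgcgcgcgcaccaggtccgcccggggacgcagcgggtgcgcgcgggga
Shisa2: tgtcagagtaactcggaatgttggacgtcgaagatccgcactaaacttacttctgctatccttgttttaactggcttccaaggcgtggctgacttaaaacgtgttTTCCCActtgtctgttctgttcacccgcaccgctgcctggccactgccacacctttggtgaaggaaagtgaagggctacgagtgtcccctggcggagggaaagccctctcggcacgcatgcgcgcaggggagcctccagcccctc
Msx1: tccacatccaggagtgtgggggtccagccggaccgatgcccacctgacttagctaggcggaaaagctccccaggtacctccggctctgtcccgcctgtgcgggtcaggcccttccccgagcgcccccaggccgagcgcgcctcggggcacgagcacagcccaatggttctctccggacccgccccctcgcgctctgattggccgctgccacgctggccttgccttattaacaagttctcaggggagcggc
Capitals mark a match to TGGGAA, the core of the site that RBPJ, the DNA-binding factor of Notch signalling, is known to bind, read here on the opposite strand. It occurs once in Shisa2 and in neither of the other promoters. None of the 3 holds GATAAG, the core of a site known for MECOM, the closest relative of PRDM16. Both strands were searched, and no base belonged to matches of both motifs.

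Promoters were found for 105 of 149 recessive-like, 145 of 197 intermediate and 7 of 9 dose-sensitive genes, some with more than 1 start. TGGGAA was present in 24.1%, 21.4% and 41.7% of their promoters (38 of 158, 43 of 201 and 5 of 12), against 21.6% of all 32851 promoters of the same length. GATAAG was present in 6.96%, 4.98% and 8.33%, against 6.55% of all. A match is only a run of letters, and these shares carry no test.

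Kölliker's organ genes were followed through the 20 genes that mark the KO population in single-cell RNA of WT ducts, libraries separate from these 9. Of the 20, 13 fell (against 0.944% of all genes), 2 rose and 5 were not called. Their median slope was -0.43 per allele, against 0.01 over all genes. Against WT, the median change was -0.10 in heterozygotes and -0.87 in null embryos on the log2 scale. Prdm16 is 1 of the 13. Leaving out null 1 or null 2 left 8 lower KO genes, and 4 were lower without WT 1, WT 2 and null 3.

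By course, 10 of the 15 KO genes that had one were recessive-like, 4 intermediate and 1, Nrxn3, dose-sensitive, with a median position of 0.171. Prdm16 itself is among the 10. Over all 355 genes with a course, 42.0% were recessive-like and 55.5% intermediate, with a median of 0.299. Of the 153 falling genes alone, 78 were recessive-like, with a median of 0.247. Clic6, a chloride channel family protein, measured 307, 288 and 225 CPM in WT, 260.2, 218 and 250.3 CPM in heterozygotes and 83.5, 91.3 and 67.5 CPM in null embryos (position 0.0980). Tecta, a main protein of the tectorial membrane, went from 2883 ± 321 CPM in WT and 2808 ± 321 in heterozygotes to 1523 ± 125 CPM in null embryos (SD, n = 3; position 0.0412, slope -0.46, edgeR adjusted p = 0.0331). In both genes the heterozygotes overlapped WT and stood far above the null embryos. Cdh4, a cadherin, had the lowest KO position, 0.0148, with 230 to 268 CPM in WT, 221 to 264 CPM in heterozygotes and 131 to 143 CPM in null embryos. Chst15, a sulfotransferase of chondroitin sulfate, and Spock1, a secreted proteoglycan, had positions of 0.119 and 0.153.

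Of the 4 intermediate KO genes, Efhd1, Rgcc and Mia fell and Tectb rose. Efhd1, a mitochondrial calcium-binding protein, measured 103, 87.9 and 74.8 CPM in WT, 68.8, 51.8 and 65.1 CPM in heterozygotes and 21.6, 26.0 and 20.03 CPM in null embryos (slope -0.98, SE 0.116, edgeR adjusted p = 0.00138). Rgcc, a regulator of the cell cycle, measured 63.8, 55.5 and 51.1 CPM in WT, 44.8, 42.7 and 43.3 CPM in heterozygotes and 23.3, 21.1 and 26.0 CPM in null embryos (slope -0.64, SE 0.0689, edgeR adjusted p = 9.60e-04). Every heterozygote of Efhd1 and Rgcc lay between the other genotypes. Mia, a secreted protein of cartilage and melanoma, had a position of 0.393 but an interval of -0.0131 to 0.762. Cryab, Tmod1, Dcn, Cenpf and Top2a were the 5 KO genes not called, with slopes of 0.02, 0.00, -0.10, -0.25 and -0.23. Among the genes named from the lists, Efhd1, Tecta, Fgf10, Fgf20, Id4, Mecom, Otx2, Pmel and Nefl also share exon bases with a gene on the other strand.

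Prosensory genes that were called all rose. Of the 20 genes marking the prosensory population, 5 rose (against 1.43% of all genes), 0 fell and 15 were not called, with a median slope of 0.11. In all, 4 rose in the fit without WT 1, WT 2 and null 3. Fgf20, the growth factor that starts sensory differentiation, measured 16.6, 15.1 and 11.5 CPM in WT, 22.5, 29.9 and 28.3 CPM in heterozygotes and 40.4, 42.6 and 27.4 CPM in null embryos (slope 0.68, SE 0.103, edgeR adjusted p = 0.00526). Its heterozygotes were above all WT libraries and overlapped null 3. Cdkn1b, the cell cycle inhibitor p27Kip1, measured 256, 232 and 251 CPM in WT, 279, 285 and 306 CPM in heterozygotes and 369, 377 and 319 CPM in null embryos (slope 0.26, SE 0.0373, edgeR adjusted p = 0.00380). It kept the order of the alleles in all 9 libraries. Sox2 and Hey2, defining prosensory factors, had slopes of 0.10 and 0.17 that did not pass (adjusted p = 0.169 and 0.233).

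The 6 prosensory genes with a course had a median position of 0.514, 4 of them intermediate and 2 recessive-like, against 55.5% and 42.0% of all genes with a course and a median of 0.299. Fgf20, Tectb, Lor and Cdkn1b stood at 0.666, 0.662, 0.581 and 0.446, and the 95% interval of Fgf20 was 0.395 to 0.971. Tectb, a tectorial membrane protein listed for both populations, averaged 758, 1168 and 1455 CPM in WT, heterozygotes and null embryos. S100a1, a calcium-binding protein, measured 36.3, 29.3 and 43.6 CPM in WT, 48.5, 38.3 and 41.7 CPM in heterozygotes and 76.0, 121 and 86.9 CPM in null embryos (position 0.170), and Runx1t1, a transcriptional corepressor, stood at -0.114. The list is thus mixed, and the difference between the populations was not tested. KO genes with a course mostly fell, and log2 positions differed by direction, with medians of 0.247 for falling and 0.328 for rising genes. In CPM these were 0.383 and 0.241. Over the alternatives the KO median ran from 0.0523 to 0.295 and the prosensory median from 0.390 to 0.607.

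**Figure D5:**
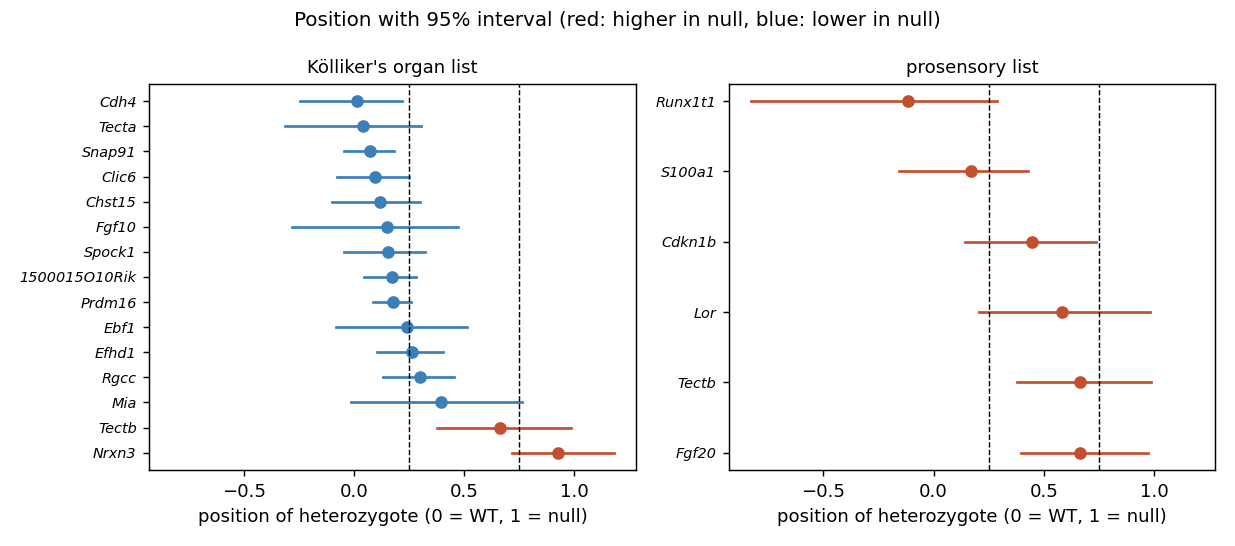
Position of the heterozygote between WT (0) and null (1) on the log2 scale (x axis) for each KO (left) and prosensory (right) gene with a course. Points are positions, bars 95% intervals, blue for genes lower and red for genes higher in null embryos, and dashed lines mark 0.25 and 0.75. Most intervals cross a boundary. Falling KO genes lie at 0.393 or less, and Tectb and Nrxn3 at 0.662 and 0.925.

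In the Notch list 3 of 27 genes rose and 0 fell, against 1.43% and 0.944% of all genes tested. Lfng, a glycosyltransferase that modifies Notch receptors, measured 16.3, 9.92 and 11.8 CPM in WT, 24.02, 18.1 and 22.5 CPM in heterozygotes and 34.6, 36.6 and 32.0 CPM in null embryos, all in order (slope 0.72, SE 0.0848, edgeR adjusted p = 0.00135; position 0.532). Hes1, a Notch target, rose with a slope of 0.29 (adjusted p = 0.0422), and Rbpjl is described above. Jag1, a Notch ligand, averaged 399, 491 and 513 CPM and did not pass (edgeR adjusted p = 0.114). In the FGF list 1 of 19 rose (Fgf20) and 1 fell, against the same shares, Fgf10, a ligand made by KO, which averaged 144, 136 and 96.9 CPM (position 0.152). Fgf9, another FGF ligand, passed on p alone (slope 0.19, adjusted p = 0.0187). In the fit without WT 1, WT 2 and null 3, 2 Notch genes and 1 FGF gene rose and 0 of either list fell. Without null 3 alone, 3 Notch genes fell, against 2.83% of all genes in that fit.

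In the BMP list 3 of 23 rose and 0 fell, against 1.43% and 0.944% of all genes tested. Besides Chrdl1 these were Id4, a BMP target that averaged 55.0, 68.6 and 80.8 CPM in allele order (position 0.574), and Bmp2, a ligand with 4.63 to 6.26 CPM in WT, 6.03 to 9.40 CPM in heterozygotes and 11.1 to 29.0 CPM in null embryos, where null 3 was highest. The slope of Bmp2 was 0.85 (edgeR adjusted p = 0.0227), 0.55 without null 3 (adjusted p = 0.00785) and 0.60 without WT 1, WT 2 and null 3 (adjusted p = 0.0577), and it was not called without WT 2 or WT 3 (adjusted p of 0.058 to 0.0782). Among 11 tested PRDM family genes, 2 rose and 1, Prdm16, fell, beside the same shares of all genes. Mecom, the closest relative of Prdm16, measured 14.4, 17.1 and 15.7 CPM in WT, 21.1, 19.4 and 18.4 CPM in heterozygotes and 32.8, 30.5 and 52.2 CPM in null embryos (slope 0.65, SE 0.102, edgeR adjusted p = 0.00628), and the slope was 0.54 without WT 1, WT 2 and null 3 (adjusted p = 0.0181). It stepped up in order at a position of 0.245, while Prdm1, with the same slope of 0.65 (adjusted p = 0.0170), stood at 0.788. Of the BMP list 1 gene rose, and of the PRDM list 2 rose and 1 fell, when WT 1, WT 2 and null 3 were left out.

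In the outer sulcus list 3 of 20 genes rose and 2 fell, against 1.43% and 0.944% of all genes tested. Sgk1, a kinase that responds to glucocorticoids, measured 62.5, 35.9 and 36.7 CPM in WT, 96.5, 68.6 and 79.4 CPM in heterozygotes and 126, 129.99 and 100.3 CPM in null embryos (slope 0.70, SE 0.107, edgeR adjusted p = 0.00558; position 0.612). Tac1, the tachykinin precursor, measured 48.4, 46.7 and 52.8 CPM in WT, 44.1, 42.8 and 47.3 CPM in heterozygotes and 21.4, 23.9 and 16.1 CPM in null embryos (position 0.111). Sgk1 thus rose with each allele, whereas Tac1 overlapped between WT and heterozygotes. In the roof list 4 of 20 rose and 1 fell, against the same shares, and the roof factor Otx2 averaged 178, 209 and 253 CPM (slope 0.25, adjusted p = 0.0311). Leaving out WT 1, WT 2 and null 3 gave 2 higher and 2 lower outer sulcus genes, and 1 higher and 0 lower roof genes.

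Markers of cells outside the epithelium were followed too. None of 20 mesenchyme, 8 endothelium, 8 macrophage, 6 red blood cell or 8 cartilage genes was called in either direction, with 3, 0, 1, 0 and 5 at an unadjusted p under 0.05, a threshold that 2725 (15.3%) of all genes passed. Without null 3, 15 mesenchyme, 5 endothelium, 2 macrophage and 1 cartilage genes were lower and 0 higher, against 2.83% and 1.74% of all genes in that fit. With WT 1, WT 2 and null 3 left out, 1 mesenchyme gene was lower and 0 genes of the other 4 lists were called. With all 9 libraries, called shares of the lists that follow stand against 1.43% higher and 0.944% lower over all genes. In the neuron list (10 tested) Stmn2 fell and Ntrk3 rose, while Nefl, a defining neurofilament gene, had 14 to 84 counts in WT, 4 to 9 in heterozygotes and 10 to 187 in null embryos. The glial list (8 tested) gave S100b, a calcium-binding protein, which rose (slope 1.08, adjusted p = 0.0119), while Sox10 had a slope of 0.06. Among 8 hair cell genes only Myo7a, a hair bundle myosin, rose (17.0, 19.4 and 35.9 CPM on average, position 0.181), while Atoh1 and Pou4f3 were not called. Of 6 melanocyte genes 1, Pmel, fell (slope -1.08, adjusted p = 0.0170), and all 6 had slopes under 0, as had 47.5% of all genes. Without null 3, 5 melanocyte genes fell, against 2.83% of all genes in that fit. The fit without WT 1, WT 2 and null 3 keeps WT 3 as the only WT library. Its neuron, glial and hair cell calls are not given. Summed hair cell RNA was 205 CPM in WT 3 and 257 CPM in null 3, against 116 to 156 CPM elsewhere. Barhl1 had 8, 5 and 82 counts in WT, 12, 5 and 6 in heterozygotes and 6, 1 and 111 in null embryos. The summed melanocyte level was highest in WT 1 and WT 2, and the slope of Pmel was -0.94 without WT 1, WT 2 and null 3 (adjusted p = 0.0244) and was not called without WT 1, WT 2, null 1 or null 2 (adjusted p of 0.0626 to 0.0697).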

How the data were processed

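Microdissected cochlear ducts of 9 embryos gave poly(A) RNA libraries read as 50 base single reads. The authors deposited raw counts per gene, made with cutadapt 1.13, STAR on mm10 and HTSeq 0.6.1p1 per the submitters' processing notes. The strand setting and annotation release are not given in the sources used here. Replicates were not pooled, and 54165 of 54232 gene identifiers were matched to GENCODE M21 for names and positions. Counts were used as deposited.

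Groups were taken from the labels. Genes were filtered (filterByExpr, minimum count 10), TMM normalised and fitted in edgeR 4.0.16 (R 4.3.3) by quasi-likelihood, with Benjamini-Hochberg adjustment over 17797 genes and all 9 libraries in each fit. Tests were the slope on alleles lost, a genotype F test, the heterozygote less the midpoint, and both codings. Positions carry 95% Fieller intervals. CPM given per library are TMM normalised without a prior count, and fitted log2 values depend on a prior for genes near 0. The code was tested on simulated data.

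The members, gene lists and thresholds were chosen with earlier results of these data known. Named genes were Prdm16, the 6 steepest rises and 6 steepest falls per allele (mean of at least 1 CPM, WT and null libraries apart), the 6 other ordered genes of smallest trend p, the 6 recessive-like and 6 dose-sensitive genes of smallest departure p, and members of small p from each list. Gli1, Vstm2a, Prdm1, genes at a course boundary, and list members outside that rule, such as Cdh4, Sox2, Hey2, Jag1, Nefl, Sox10 and Barhl1, were named after their values were seen. Some genes that the rule names are not reported here. Alternatives were DESeq2 1.42.0, limma-voom (limma 3.58.1), other normalisation and filters, a replicate block, sex and mesenchyme covariates, other scales and boundaries, and leaving out embryos.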

Additional observations from a re-analysis of the deposited data

How the results depend on the processing

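Depth limits genes near the floor of 3 counts, and 3 embryos a genotype leave most courses unresolved. Slopes of the 30 named genes kept their side of the threshold in 546 fits, lost it in 30, gained it in 14 and reversed in 2, both for Hba-a1, whose uncalled slope was 0.0463 with a mesenchyme covariate and 0.2497 without the 3 libraries richest in mesenchyme RNA. The cause of the shifts below was not tested.

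DESeq2 gave 300 genes lower in the trend, 1072 genotype calls, 45 departures, 652 and 137 calls under the recessive-like and dose-sensitive codings, and 303, 342 and 59 recessive-like, intermediate and dose-sensitive courses. Without a filter on low counts there were 1012 genotype calls, 42 departures and 354, 322 and 117 courses. With a mesenchyme covariate 415 genes rose in the trend, 642 passed for genotype, 591 and 5 under the codings, and 18 were dose-sensitive. A sex covariate gave 4 departures. Without WT 1, WT 2 and null 3, chosen after seeing the data, 113 genes rose and 93 fell, 4 KO genes fell, 226 passed for genotype, 4 for departure and 8 under the dose-sensitive coding, 92 were intermediate and 25 dose-sensitive, and the median position was 0.259. Dose-sensitive genes numbered 15 on the CPM scale and 16 with boundaries at 0.333 and 0.667, and the median position was 0.363 over trend-called genes.

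Leaving out each embryo gave 146 to 319 higher and 92 to 519 lower genes in the trend, 8 to 13 lower KO genes, 4 to 6 higher prosensory genes, 195 to 750 genotype calls, 0 to 4 departures, 261 to 575 and 0 to 104 calls under the codings, 94 to 195, 95 to 377 and 1 to 102 courses, and a median position of 0.230 to 0.396. The KO median position was 0.117 to 0.236 and the prosensory one 0.446 to 0.607.

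Deviations of embryos with the same replicate number had correlations from -0.284 to 0.202, which cannot settle whether such embryos shared a litter. A replicate block gave 0 departures and 5 dose-sensitive genes, and 196 higher and 129 lower genes in the trend. The fits of the gene lists, Bmp2, Mecom and Pmel, and of Nrxn3 under the dose-sensitive coding, without single libraries or the 3 together were also added after seeing the data.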

Other observations

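Cell cycle genes had slopes mostly under 0 and none was called with all 9 libraries. All 26 mitosis genes had slopes under 0 (-0.31 to -0.06, median -0.22), 19 at an unadjusted p under 0.05 (15.3% of all genes) and 0 by edgeR after adjustment (lowest adjusted p = 0.115). Their median log2 change against WT was -0.02 in heterozygotes and -0.44 in null embryos, and their summed level was 1757 to 2311 CPM in WT, 1729 to 2215 CPM in heterozygotes and 1198 to 1724 CPM in null embryos. Of 26 DNA replication genes, 23 had slopes under 0 (median -0.12), with 7 at an unadjusted p under 0.05 and 0 called. Without null 3, 1 of 26 mitosis genes fell (3.85%) and 0 DNA replication genes were called, against 2.83% of all genes lower in that fit.

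Genes within 5 Mb of Prdm16 were looked at because a trapped allele can carry flanking sequence from another strain. Of 122 tested, 1 rose and 1 fell (0.820% each, against 1.43% and 0.944% of all genes), and the median slope was 0.00102. Gpr153, an orphan receptor gene, averaged 20.7, 23.4 and 33.1 CPM in WT, heterozygotes and null embryos (slope 0.34, edgeR adjusted p = 0.0384). B230104I21Rik, which overlaps 109 exon bases of Prdm16 on the other strand, averaged 1.35, 0.826 and 0.0247 CPM (edgeR adjusted p = 0.0469), and its reads cannot be told from those of Prdm16 if strand was ignored.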
